A study of Mus musculus with 16 samples.

Results

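Non-coding RNA promoter regions are the stretches of accessible chromatin that lay at the starts of long non-coding RNA genes and away from the starts of protein-coding genes. They were found by merging the autosomal peaks of all 16 peak lists wherever at least 1 bp overlapped. A merged region became a member when it lay within 1000 bp of a transcription start of a lincRNA, antisense, processed transcript, sense intronic or bidirectional promoter gene of GENCODE M21 (GRCm38) and more than 1000 bp from every protein-coding start. There were 4973 members, which is 0.974% of the 510542 merged autosomal regions, and they lay at 3651 genes. Protein-coding promoter regions, within 1000 bp of a protein-coding start, numbered 33072 and served for comparison.

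The peaks came from ATAC-seq, in which a transposase cuts accessible DNA, of cultured CD8+ T cells from mouse spleen. The 16 libraries formed 4 groups of 4, which combined WT (TPdh+/+) and TPdh-/- cells with effector (TE) and memory (TM) differentiation, to ask how loss of the pyruvate dehydrogenase complex affects chromatin in these cells. TPdh-/- mice carry a floxed Pdha1, an X-linked gene for the E1 subunit of the complex, and a Cre driven by the Cd4 promoter, which acts in developing T cells. Per the methods, young adult mice of both sexes were used, and OT-I cells, which carry a transgenic receptor for an ovalbumin peptide, were activated with that peptide and then kept in IL-2 for TE or IL-15 for TM. The labels do not say whether the 4 libraries of a group came from separate mice, so p-values measure only the spread between these libraries, which may be technical. Pdha1 lies outside the autosomes, so these regions give no check of the genotype labels.

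Long non-coding RNAs are transcribed like messenger RNAs but encode no known protein. Some are precursors of small nucleolar RNAs or microRNAs, some silence neighbouring genes in imprinted clusters, and many have no known role. Active promoters of either class are depleted of nucleosomes, which is what the transposase detects, and promoters used in most cell types often lie in CpG islands, where the dinucleotide CG is more common than in the rest of the genome.

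Depth differed among the libraries and moved with the groups. The lists held 2296 to 86641 peaks, and the background coverage, the usual fragment depth where no peak lies, was 0.636 to 1.55 in WT TE libraries and 0.173 to 0.572 in the others. Starts of 7 of the 8 genes listed for CD8+ T cells had a peak in 2 to 8 libraries (Cd8b1 in 8, Cd8a in 3, Cd3e in 2) and Cd2 had none. Only Cd8a and Cd8b1 of this list are CD8 genes, and CD4+ T cells share the others. Of the myeloid genes Csf1r had a peak in 4 libraries, Cd14 in 1 and Lyz2 and Spi1 in 0, and of the CD4+ T cell genes Zbtb7b had one in 3 and Cd4 in 0, so the marker lists overlapped gene by gene. Starts of 2 B cell marker genes also had a peak, in 1 and in 2 libraries. The 8 genes listed for CD8+ T cells were held in 30 gene and library pairs, 23.4% of those possible. The 4 myeloid genes had 5 pairs (7.81%), the 2 CD4+ T cell genes 3 (9.38%) and the 4 non-immune genes 2 (3.125%). These totals do not tell CD8+ from CD4+ T cells.

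Sequences around the strongest summit, 151 bases each from the RefSeq sequence of GRCm38 and written 5′ to 3′ on the strand of the gene, are given for 6 members that the results below turn on. Capitals mark each CG dinucleotide. Snhg8 and 1700028E10Rik recurred in nearly every library, 2810405F17Rik, Dancr and Mir17hg had peaks throughout one group and nowhere in another, and Gm47520 was among the strongest members that a lone library held.
Snhg8: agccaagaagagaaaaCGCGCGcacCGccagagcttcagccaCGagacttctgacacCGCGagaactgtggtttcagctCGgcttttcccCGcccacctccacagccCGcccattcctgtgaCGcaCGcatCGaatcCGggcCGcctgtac
1700028E10Rik: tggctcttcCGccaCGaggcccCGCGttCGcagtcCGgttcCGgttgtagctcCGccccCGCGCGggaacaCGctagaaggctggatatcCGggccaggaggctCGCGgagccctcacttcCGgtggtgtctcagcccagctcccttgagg
2810405F17Rik: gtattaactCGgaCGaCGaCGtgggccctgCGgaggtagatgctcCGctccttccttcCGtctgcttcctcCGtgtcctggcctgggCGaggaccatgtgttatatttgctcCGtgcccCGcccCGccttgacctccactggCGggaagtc
Dancr: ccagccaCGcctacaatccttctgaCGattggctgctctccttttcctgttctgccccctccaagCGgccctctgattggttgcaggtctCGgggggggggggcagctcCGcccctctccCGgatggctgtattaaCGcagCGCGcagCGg
Mir17hg: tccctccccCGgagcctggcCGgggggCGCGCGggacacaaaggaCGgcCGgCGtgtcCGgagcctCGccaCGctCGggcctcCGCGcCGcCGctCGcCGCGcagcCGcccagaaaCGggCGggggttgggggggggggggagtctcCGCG
Gm47520: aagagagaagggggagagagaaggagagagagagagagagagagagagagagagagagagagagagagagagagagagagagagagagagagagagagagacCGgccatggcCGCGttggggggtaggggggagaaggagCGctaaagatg
The windows lie at chr3:123508459-123508609 (minus strand) for Snhg8, chr5:151368593-151368743 (plus strand) for 1700028E10Rik, chr4:137388191-137388341 (minus strand) for 2810405F17Rik, chr5:74092962-74093112 (plus strand) for Dancr, chr14:115042043-115042193 (plus strand) for Mir17hg and chr13:90417178-90417328 (minus strand) for Gm47520. They hold 15, 16, 13, 10, 24 and 4 CG dinucleotides in that order. The Gm47520 window consists largely of a GA repeat.

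Most members were seen in a lone library. Of the 4973 members, 4125 were held by 1 library and 848 (17.1%) by at least 2, a library holding a region when one of its peaks overlaps it. Protein-coding promoter regions recurred more often, with 32.5% held by at least 2 libraries, and regions away from both kinds of start recurred less often, with 11.9%. At 4 or more libraries the shares were 2.86% (142 members), 16.3% and 0.749%, and at 8 or more they were 0.824% (41 members), 5.999% and 0.0772%. At least 9 libraries held 30 members, and 12 or more held 9. None was held by all 16 libraries, against 10 protein-coding promoter regions (0.0302%) and 38 of the other regions (0.00804%). These shares describe regions that share libraries and depth, so no test was made of them. Members had a median width of 221 bp and reached 2140 bp.

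**Figure D1:**
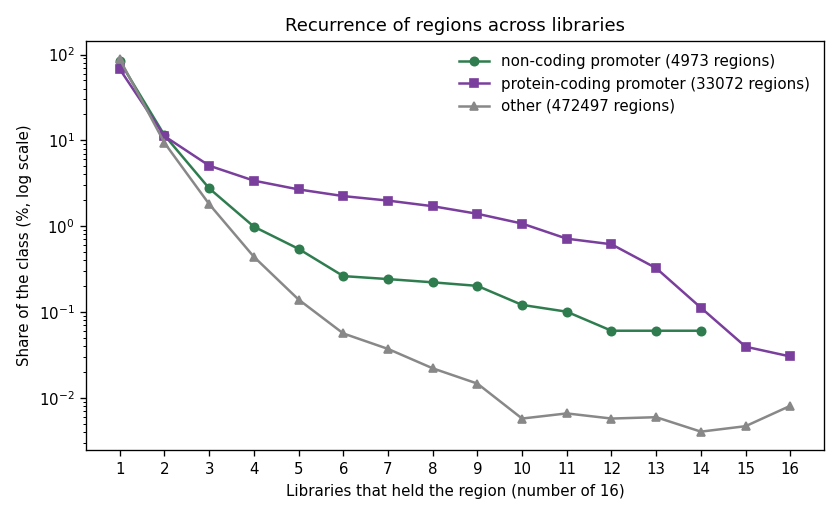
Share of each class of region (%, log scale) against the number of libraries of 16 that held it, for 4973 non-coding promoter regions, 33072 protein-coding promoter regions and 472497 other regions. From 3 to 14 libraries the non-coding line runs between those of the other classes, and 142 members (2.86%) were held by 4 or more libraries.

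The recurring members lay closer to the annotated start. The summit was a median of 243 bp from the nearest non-coding start in the 142 members held by 4 or more libraries, 487.5 bp in the 706 held by 2 or 3 and 557 bp in the 4125 held by 1. The region covered the start itself in 68.3%, 23.5% and 11.3% of them, their median widths being 738, 389 and 194 bp, and a wider region covers a start more often at any position. The summit was upstream of the start in 68.3%, 51.7% and 49.7%. Of the 729 members that covered a start, 13.3% were held by 4 or more libraries, against 1.06% of the 4244 that did not. At the edge of the rule, 2 of the 434 members with their start 901 to 1000 bp away were held by 4 or more libraries, and 5 of the 414 regions with a start 1001 to 1100 bp away. Among members 1001 to 1100 bp from a protein-coding start, 1 of 52 was held by 4 or more libraries, and 0 of the 58 regions 901 to 1000 bp from one.

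**Figure D2:**
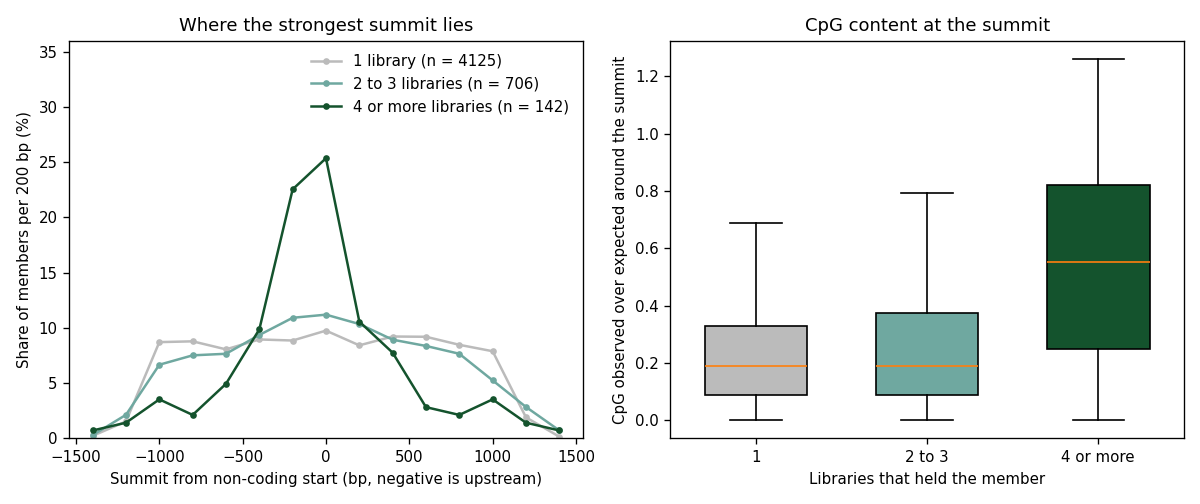
Left, position of the strongest summit relative to the nearest non-coding start (bp) as the share of members per 200 bp, for members held by 1, 2 to 3 and 4 or more libraries. Right, CpG observed over expected in the 201 bp around the summit, with box and centre line for quartiles and median and whiskers to the last value within 1.5 box lengths. The members held by 4 or more libraries peak at the start and have a median CpG ratio of 0.553.

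Base composition moved with recurrence. In the 201 bp around the summit, the median GC content was 46.8%, 47.8% and 55.7% in members held by 1, 2 to 3 and 4 or more libraries, and the median CpG observed over expected was 0.190, 0.189 and 0.553. A ratio of at least 0.6 was found in 5.99%, 12.3% and 43.0% of them. Protein-coding promoter regions held by 4 or more libraries had a median GC content of 65.7%, a ratio of 0.839 and a share of 83.4%, and the other regions held as often had 47.3%, 0.155 and 7.75%. Repeat-masked sequence made up a median of 17.4% of the window in members held by 1 library, 26.4% in those held by 2 to 3 and 10.9% in those held by 4 or more, in no steady order.

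Short motifs were counted in the same windows on either strand. The SP/KLF motif GGGCGG was in 38.0% (54 of 142) of members held by 4 or more libraries, in 5.55% of those held by 1, in 64.1% of protein-coding promoter regions held by 4 or more and in 3.68% of all 510542 windows. The ETS motif CCGGAAG was in 7.75%, 0.945%, 15.7% and 0.838% of the same sets. The CCAAT box (CCAAT) differed less, at 26.8%, 23.1%, 33.7% and 26.1%. TATAAA, a form of the TATA box, was in 13.4%, 11.7%, 2.23% and 15.96%, so the recurring members were near all windows and the recurring protein-coding promoter regions below them. The RUNX motif TGTGGTT was in 7.75% (11 of 142), 4.61%, 2.19% and 4.55%. The NRF1 motif GCATGCGC and the YY1 motif AAGATGGC were in 2 and 3 of the 142 members, and the AP-1 motif TGANTCA in 8. A match is a description of the letters and not a bound site.

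**Figure D3:**
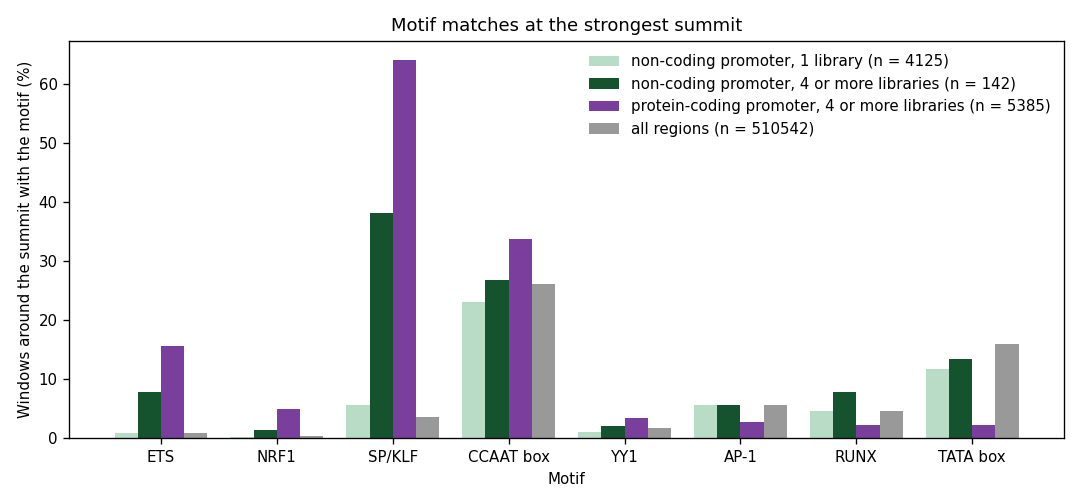
Share of 201 bp windows around the strongest summit (%) that hold each of 8 motifs on either strand, for non-coding promoter regions held by 1 library and by 4 or more, protein-coding promoter regions held by 4 or more, and all regions. The SP/KLF bar of the recurring non-coding members (38.0%) lies between those of all regions (3.68%) and recurring protein-coding promoters (64.1%).

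By gene type, 3115 members (62.6%) lay at lincRNA genes, 1207 (24.3%) at antisense genes, 479 (9.63%) at processed transcripts, 152 at sense intronic and 20 at bidirectional promoter genes. Processed transcripts, a class that holds many small nucleolar RNA hosts, had 5.22% of members held by 4 or more libraries, lincRNA genes 2.99% and antisense genes 1.82%. RefSeq places a messenger RNA start within 1000 bp of 179 members (3.60%), among them 12 of the 142 held by 4 or more libraries, so a part of the members are coding promoters in another annotation.

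The members held by most libraries were found in all 4 groups, which follows for any region held by 14 of 16 libraries. The summit pileup, the number of fragments stacked over the highest base of a peak, is given for each in the order of replicates 1 to 4, with 0 for no peak. At Gm26901, a lincRNA (chromosome 1, 7397177 to 7398632) of no known role, it was 17, 22, 0 and 14 in WT TE, 8, 0, 11 and 16 in TPdh-/- TE, 26, 10, 9 and 10 in WT TM and 17, 7, 18 and 10 in TPdh-/- TM. At 1700028E10Rik (chromosome 5, 151368222 to 151369089) the pileups were 14, 14, 0 and 18, then 6, 7, 12 and 8, then 14, 5, 0 and 16, and 5, 4, 8 and 9 in the same order of groups. Both were held by 14 libraries, and their groups overlapped. Gm6410 (chromosome 8, 4677324 to 4678925), also held by 14, had 13, 11, 11 and 19 in WT TE, 8, 0, 4 and 10 in TPdh-/- TE, 8, 6, 0 and 11 in WT TM and 7, 9, 18 and 15 in TPdh-/- TM.

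Snhg8, a small nucleolar RNA host (chromosome 3, 123508107 to 123509030), was held by 13 libraries. Its pileups were 14, 19, 0 and 16 in WT TE, 7, 0, 6 and 8 in TPdh-/- TE, 14, 10, 0 and 9 in WT TM and 10, 13, 7 and 15 in TPdh-/- TM. The 3 libraries without a peak there were WT TE replicate 3, TPdh-/- TE replicate 2 and WT TM replicate 3, and the regions at Gm37494 and Zswim6 were missing from these same 3. WT TE replicate 3 and WT TM replicate 3 had the fewest peaks of their groups, as had TPdh-/- TE replicate 2. Zswim6, Gm37494 and Gm26744, described further on, overlap a messenger RNA start of RefSeq (that of Map3k13 for Gm26744), although their GENCODE entries that fall in the rule are non-coding. Gm15287 and 1700096K18Rik were held by 12 libraries and Gm47061, antisense and near Tfap2a, by 11.

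A530040E14Rik, an antisense gene on chromosome 1 (85105515 to 85106580), was held by 12 libraries, unevenly. Its pileups were 21, 8, 13 and 28 in WT TE, 0, 6, 0 and 0 in TPdh-/- TE, 8, 0, 8 and 4 in WT TM and 10, 5, 4 and 4 in TPdh-/- TM. All 4 WT TE and all 4 TPdh-/- TM libraries had a peak, and 1 TPdh-/- TE library. Its window has a CpG ratio of 0.193 and is 64.2% repeat-masked.

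**Figure D4:**
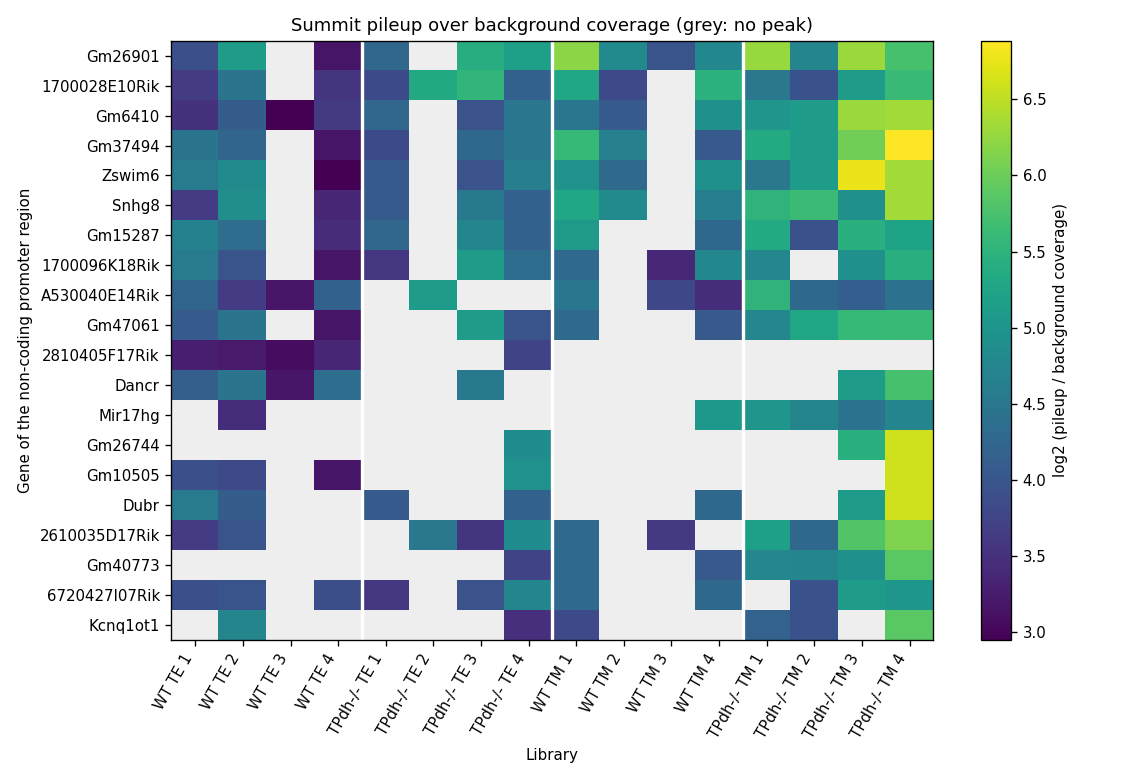
Summit pileup over the background coverage of the library (log2 colour scale, grey for no peak) at 20 named non-coding promoter regions (rows) in the 16 libraries (columns, white lines between groups). The 6 rows at the top are filled in at least 3 libraries of every group, while 2810405F17Rik and Dancr are filled in all 4 WT TE libraries and no WT TM library and Mir17hg in all 4 TPdh-/- TM and no TPdh-/- TE library.

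Relative to background coverage the highest summits were at Gm37494 (118 times), Zswim6 (109 times) and, each at 96.6 times, Gm26744, Gm10505 and Dubr, all in TPdh-/- TM libraries. Background coverage was 0.186 to 0.261 in that group, so a given pileup yields a higher ratio there than in WT TE. Dubr, a lincRNA known from muscle differentiation, had pileups of 27, 11, 0 and 0 in WT TE, 7, 0, 0 and 8 in TPdh-/- TE, 0, 0, 0 and 7 in WT TM and 0, 0, 8 and 18 in TPdh-/- TM. Gm26744 had a peak in 3 libraries and Gm10505 in 5. The widest members were 2610035D17Rik (2140 bp), 390338 bp from the start of Sox9, Gm40773 (1877 bp) and 6720427I07Rik (1699 bp), held by 11, 7 and 11 libraries. The strongest of the members that a lone library held were AC166748.2, which lies 740 bp from a RefSeq start of Slc22a29, with a pileup of 31 and a −log10 q of 33.9 in WT TM replicate 4, Gm47520 with 17 in WT TM replicate 1 and Gm13133 with 18 in TPdh-/- TM replicate 3.

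Gene lists were drawn up by known role, and their members were counted by the number of libraries. Of 22 small RNA host genes, 17 were clear of coding starts, 15 of these had a member and 9 were held by 4 or more libraries, with a median of 5. After Snhg8, Dleu2, which hosts microRNAs lost in chronic lymphocytic leukaemia, was held by 10 libraries over 7 regions. Mir155hg, the precursor of a microRNA induced on lymphocyte activation, was held by 8 libraries over 3 regions. Snhg5 and Snhg15 were held by 7 libraries each, and Snhg6 and Mir17hg by 6. The count of these host genes per library was 1 to 7 in WT TE, 0 to 6 in TPdh-/- TE, 2 to 6 in WT TM and 6 to 10 in TPdh-/- TM. The same libraries held 37 to 255, 305 to 793, 149 to 606 and 594 to 792 members in that order, so the counts are not shares.

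Of the nuclear and growth lncRNAs, 7 of the 10 clear of coding starts had a member and 3 were held by 4 or more libraries. Lncpint, a p53-induced lincRNA, was held by 10 libraries over 7 regions, Pvt1, the neighbour of Myc, by 7 over 6 regions, and Neat1, the scaffold of paraspeckles, by 5 over 3. Of the T cell and immune lncRNAs, 7 of 9 had a member and 4 were held by 4 or more libraries, with Ifngas1, which lies beside Ifng, in 4. Of the imprinted lncRNAs, 8 of 10 had a member and 3 were held by 4 or more. Kcnq1ot1, which silences its neighbours on the paternal chromosome, was held by 1 library each of WT TE, TPdh-/- TE and WT TM and by 3 of TPdh-/- TM, and H19 by 3 libraries. Of the Hox and developmental antisense RNAs, 10 of 18 had a member but only Sox2ot, which overlaps Sox2, was held by 4 or more libraries (6 over 3 regions). Over all members 2.86% were held by 4 or more libraries, but the list counts are per gene and genes with several regions have more chances. The lists also share genes. Mir155hg, Mir142hg and Mir17hg are counted among the small RNA hosts and the immune lncRNAs. Snhg14 is counted among the hosts and the imprinted lncRNAs, and Meg3 among the growth and the imprinted lncRNAs.

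The number of members held by a library differed by group. WT TE libraries held 150, 255, 37 and 76 members, TPdh-/- TE libraries 356, 305, 793 and 580, WT TM libraries 606, 209, 149 and 356, and TPdh-/- TM libraries 627, 792, 594 and 692. Every TPdh-/- TE library held more than every WT TE library, and the groups of the other 3 comparisons overlapped. On the log2 scale TPdh-/- TE exceeded WT TE by 2.21 (8.88 ± 0.635 against 6.67 ± 1.21, SD, n = 4, exact permutation p = 0.0286, adjusted over the 4 comparisons p = 0.114). With 4 libraries against 4, 0.0286 is the smallest p this test can give. TPdh-/- TM exceeded WT TM by 1.23 (exact permutation p = 0.0571, adjusted p = 0.114), WT TM exceeded WT TE by 1.49 (exact permutation p = 0.143, adjusted p = 0.190), and TPdh-/- TM exceeded TPdh-/- TE by 0.51 (exact permutation p = 0.229, adjusted p = 0.229).

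List length moved with these numbers. WT TE lists held 2270 to 18783 autosomal peaks and TPdh-/- TE lists 32144 to 76520. Background coverage was 1.18 ± 0.406 in WT TE and 0.324 ± 0.130 in TPdh-/- TE (SD, n = 4). With background coverage as a covariate the difference was 0.978 (permutation of residuals, p = 0.571). With peaks of −log10 q of at least 5 alone it was 0.748 (exact permutation p = 0.4), and with a 500 bp window 1.79 (exact permutation p = 0.0571). The call ended under each. Leaving out any 1 of the TPdh-/- TE libraries also ended it, with differences of 1.97 to 2.43 (exact permutation p = 0.0571). In TM the covariate gave 0.136 (permutation of residuals, p = 0.8286), and without WT TM replicate 3, whose background coverage stood apart from its group, it gave 1.14 (permutation of residuals, p = 0.229). The TM difference passed the threshold without WT TM replicate 1 (1.59, exact permutation p = 0.0286). TPdh-/- TM against TPdh-/- TE passed without TPdh-/- TE replicate 3 (0.757, exact permutation p = 0.0286). WT TM against WT TE turned to -1.15 with the covariate and to -0.146 with peaks of −log10 q of at least 5. Genotype and depth cannot be told apart in these lists.

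**Figure D5:**
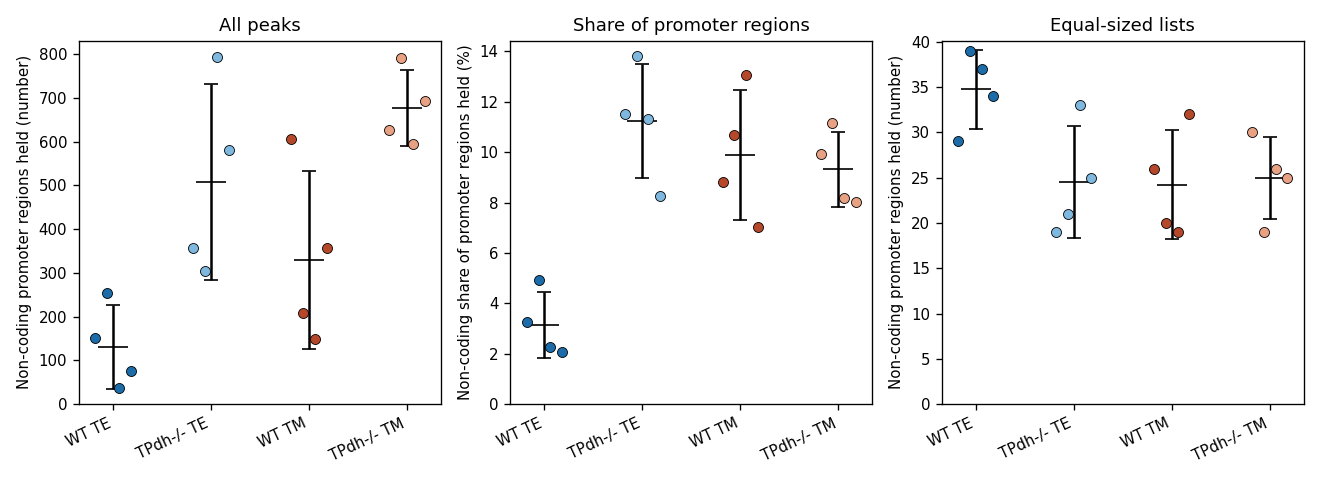
Non-coding promoter regions in each library (points), with group mean and SD (bars, n = 4). Left, the number held by all peaks. Centre, the non-coding share of all promoter regions held (%). Right, the number held by the 2270 strongest autosomal peaks. WT TE has the lowest mean in the first 2 panels (37 to 255 members, 2.07 to 4.92%) and reaches the highest count in the equal-sized lists (29 to 39).

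The balance between the promoter classes set WT TE apart. Of all promoter regions that a library held, members were 3.25, 4.92, 2.27 and 2.07% in WT TE, 11.5, 13.8, 11.3 and 8.28% in TPdh-/- TE, 8.81, 10.7, 13.05 and 7.04% in WT TM and 9.91, 11.2, 8.17 and 8.04% in TPdh-/- TM. All WT TE libraries lay below all libraries of the other groups. The share was 8.11 percentage points higher in TPdh-/- TE than in WT TE (11.2 ± 2.28 against 3.13 ± 1.304%, SD, n = 4, exact permutation p = 0.0286, adjusted p = 0.0571) and 6.77 points higher in WT TM than in WT TE (9.89 ± 2.58%, exact permutation p = 0.0286, adjusted p = 0.0571). TPdh-/- TM differed from WT TM by -0.571 points (exact permutation p = 0.743) and from TPdh-/- TE by -1.92 points (exact permutation p = 0.143, adjusted p = 0.190), the latter being -1.05 without TPdh-/- TE replicate 2 and -2.90 without replicate 4. With starts within 500 bp the TE difference was 4.56 and the WT difference 3.82 points, each with an exact permutation p of 0.0286.

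The covariate for background coverage reduced the TE difference to 3.14 points (permutation of residuals, p = 0.0571) and left the WT difference at 6.55 points (permutation of residuals, p = 0.314). It turned the TM genotype difference to 4.46 points (permutation of residuals, p = 0.0571), or 3.92 points without WT TM replicate 3 (permutation of residuals, p = 0.2). Without WT TE replicate 3 or 4 the WT difference was 6.48 or 6.41 points (exact permutation p = 0.0571), and without WT TM replicate 3 the TM genotype difference was 0.480 points (exact permutation p = 0.686). As a share of all regions held, members went the other way, at 1.56 ± 0.182% in WT TE and 1.02 ± 0.0469% in TPdh-/- TE (SD, n = 4), with 1.05 ± 0.117% in WT TM and 1.01 ± 0.0572% in TPdh-/- TM. The stretch within reach of the rule is 0.715% of autosomal bases, but a region counts when its edge comes near, so wide regions qualify more often. By summit position alone, the mean share of peaks was 1.47% in WT TE and 0.940% in TPdh-/- TE. It was 0.959% in WT TM and 0.907% in TPdh-/- TM.

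Equal-sized lists removed the difference in length. Among the 2270 strongest autosomal peaks of each library, which is the length of the shortest list, members numbered 29, 39, 37 and 34 in WT TE, 19, 21, 33 and 25 in TPdh-/- TE, 26, 20, 19 and 32 in WT TM and 30, 19, 26 and 25 in TPdh-/- TM. WT TE overlapped the other groups only at its lower end. TPdh-/- TE minus WT TE was -10.25 members (24.5 ± 6.19 against 34.75 ± 4.35, SD, n = 4) and WT TM minus WT TE was -10.5 (24.25 ± 6.02), each with an exact permutation p of 0.0571 and an adjusted p of 0.114. The differences within TM (0.75, exact permutation p = 1) and within TPdh-/- (0.5, exact permutation p = 0.943) were smaller than the spread between libraries. With background coverage fitted within TM, the TM genotype difference was -7.95 members, a value with no test. Protein-coding promoter regions in the same lists numbered 1382 to 1808 in WT TE and 99 to 704 in the other groups. Counting only peaks that covered at least 50% of the region turned the WT TE differences to 2.25 and 1.5 members. A 500 bp window gave -14.5 and -13.25 and gene 5′ ends only gave -17.25 for both, each with an exact permutation p of 0.0286.

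Peaks at members were weaker than those at protein-coding promoters in the same library. The median log2 of summit pileup over background coverage was lower at members in 11 of 16 libraries, equal in 5 and higher in 0. The mean difference was -0.163 (exact sign-flip permutation p = 0.000977, n = 16). With peaks of −log10 q of at least 5 it was -0.0383 (exact sign-flip permutation p = 0.172), and in regions held by at least 2 libraries -0.0690 (exact sign-flip permutation p = 0.0781). The median member pileup was 8 to 14.5 fragments in WT TE libraries and 4 to 6 in the others, so a member in the latter often rests on few fragments.

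Few members separated the groups. A region separated a pair of groups when all 4 libraries of one and none of the other held it, which is the only pattern with an exact Fisher p under 0.05 (p = 0.0286). No member met this in TM between genotypes, where 0.0206% of all regions and 0.209% of protein-coding promoter regions did. None met it in TE between genotypes either (0.0155% and 0.169%). Between WT TM and WT TE 2 members (0.0402%) met it, 2810405F17Rik and Dancr, against 0.0159% of all and 0.197% of protein-coding promoter regions. Between TPdh-/- TM and TPdh-/- TE 1 member (0.0201%) did, Mir17hg, against 0.0188% and 0.187%. Adjusted over all regions, each exact Fisher p was 1, and leaving out 1 library gave 0 to 6 members in a comparison. The member shares are close to those of all regions or rest on 1 or 2 members.

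Dancr, a small nucleolar RNA host and an lncRNA known for holding back differentiation of progenitor cells (chromosome 5, 74092771 to 74093152), had pileups of 20, 14, 13 and 32 in WT TE, 0, 0, 6 and 0 in TPdh-/- TE, 0 in every WT TM library and 0, 0, 8 and 10 in TPdh-/- TM. All 4 WT TE values lay above every other library. 2810405F17Rik, a lincRNA of no known role (chromosome 4, 137388128 to 137388507), had 11, 6, 12 and 16 in WT TE, 6 in TPdh-/- TE replicate 4 and 0 elsewhere. WT TE was also the group of highest background coverage. Relative to background the highest Dancr peak was in TPdh-/- TM replicate 4, at 53.7 times. That of 2810405F17Rik was in TPdh-/- TE replicate 4, at 13.5 times. They rest on 10 and 6 fragments over backgrounds of 0.186 and 0.445. At so low a background a called peak of few fragments can exceed the WT TE ratios, so these ratios cannot rank the groups. Mir17hg, the precursor of a microRNA cluster that promotes lymphocyte proliferation, had a member upstream of its annotated start (chromosome 14, 115041949 to 115042258, 621 bp away). Its pileups were 7, 7, 5 and 5 in TPdh-/- TM, 0 in every TPdh-/- TE library, 12 in WT TM replicate 4, 7 in WT TE replicate 2 and 0 elsewhere. Its window had the highest CG count of those printed above.

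A looser rule, a difference of at least 3 libraries, was added after the data were seen and carries no test. TPdh-/- TM held 21 members (0.422%) in at least 3 more libraries than WT TM, against 0.199% of all regions and 1.64% of protein-coding promoter regions. WT TM held 0, against 0.0278% of all regions and 0.0605% of protein-coding promoter regions. Named after their values were seen, the 21 include Snhg5 and Junos, the divergent partner of Jun, each in 3 TPdh-/- TM and no WT TM library. Mir17hg was also among them, in 4 against 1. TPdh-/- TE held 7 (0.141%) in more libraries than WT TE, against 0.0926% of all regions and 0.124% of protein-coding promoter regions. Among the 7 was 1 region of Pvt1, in 3 libraries against 0. WT TE held 4 (0.0804%) in more libraries than TPdh-/- TE, against 0.111% of all regions and 1.53% of protein-coding promoter regions. These were A530040E14Rik, 2810405F17Rik and Dancr, each in 4 libraries against 1, and Snhg15 in 3 against 0.

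Between the differentiation states, WT TM held 1 member (0.0201%), Gm26984, in at least 3 more libraries than WT TE. The shares were 0.0407% of all regions and 0.0816% of protein-coding promoter regions. WT TE held 8 (0.161%, against 0.131% of all regions and 1.77% of protein-coding promoter regions). TPdh-/- TM held 17 (0.342%) in more libraries than TPdh-/- TE, against 0.197% of all regions and 1.66% of protein-coding promoter regions. TPdh-/- TE held 5 (0.101%, against 0.0699% of all regions and 0.139% of protein-coding promoter regions). Comparisons that share a group share its libraries. The lists of TPdh-/- TM had the highest mean length, with 58421 to 84359 autosomal peaks. By this rule the group with more peaks held more members in both genotype comparisons and in TPdh-/- cells, but not in WT cells, where the WT TM lists were longer (mean 31095 against 8711 peaks) and held 1 member against 8. Over all regions the TE order was reversed, with 473 regions higher in TPdh-/- TE and 568 in WT TE. The part of list length was not tested.

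Reproducibility within a group was low. All 4 libraries held 6 of the 388 members (1.55%) seen in any WT TE library, 1 of 1882 (0.0531%) in TPdh-/- TE, 1 of 1216 (0.0822%) in WT TM and 19 of 2416 (0.786%) in TPdh-/- TM. For protein-coding promoter regions the shares were 8.10%, 0.462%, 0.661% and 4.11%. The 6 members of WT TE were A530040E14Rik, 2810405F17Rik, Dancr, Gm6410, C920006O11Rik and 1700031P21Rik. The lone member of TPdh-/- TE was 1700028E10Rik and that of WT TM was Gm26901, both of which all TPdh-/- TM libraries held too. Of the 142 members held by 4 or more libraries, single libraries held from 13 (9.15%, TPdh-/- TE replicate 2) to 94 (66.2%, TPdh-/- TM replicate 4), and 74 of the 4973 members had a peak in at least 1 library of each group.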

How the data were processed

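ATAC-seq peak lists of 16 libraries were analysed, 4 in each of 4 groups assigned from the titles. Per the methods and labels, the authors trimmed reads with Trimmomatic, aligned pairs to GRCm38/mm10 with BWA MEM 0.7.17, removed multiply mapped and blacklisted reads and called peaks per library with MACS2 2.2.7.1 in paired-fragment mode; a control library and duplicate removal were not stated. For each peak the authors deposited a fold enrichment (a ratio of summit pileup to local background, each with 1 added) and a −log10 p-value and −log10 q-value. These values were not scaled between libraries.

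Fold enrichment and p-value together fix the pileup and the background, which were solved for each peak. The pileup was within 0.05 of a whole number for at least 99.925% of the peaks of each library. The most frequent background served as the measure of depth, as read totals were not analysed here. Peaks on the 19 autosomes were merged (overlap of at least 1 bp). Groups were compared over libraries by two-sided exact permutation tests with a threshold of 0.05 and Benjamini-Hochberg adjustment over 4 comparisons, and regions by two-sided exact Fisher tests adjusted over all regions. With the covariate, the residuals of a fit without the group were permuted over all arrangements, which gives an approximate p-value. Peak strength was tested by sign flips over libraries. Alternatives were a 500 bp window, gene 5′ ends only, a −log10 q of at least 5, a cover of 50%, another ranking, background coverage as a covariate, a replicate block and leaving out each library. The labels do not say whether the replicate numbers of the titles pair libraries, so the main tests were unpaired. Regions were named by a rule: the 10 held by most libraries, those that separated groups, list genes, the 5 highest over background and the 3 widest, with the strongest lone-library members, Snhg5, Snhg15, Junos, Pvt1 and other regions of the looser rule chosen after their values were seen. Members and lists were chosen with earlier results of these data known. The scripts were tested on simulated data (Python 3.11.15, numpy 2.4.6, scipy 1.17.1, pandas 2.3.3). The full counts of the B cell marker list are not reported here.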

Additional observations from a re-analysis of the deposited data

Results flagged for a closer look

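The effect of genotype on the non-coding share of promoter regions differed between TM and TE cells when depth was not in the fit. The share was -0.571 percentage points in TPdh-/- TM relative to WT TM and 8.11 points higher in TPdh-/- TE than in WT TE, and the TM effect minus the TE effect was -8.68 points (permutation test within the contrast over 4900 arrangements, p = 0.00163, adjusted over 3 measures p = 0.0049). All 4 TPdh-/- TE libraries lay above all 4 WT TE libraries, while the TM groups overlapped. Background coverage was 1.18 in WT TE, 0.324 in TPdh-/- TE, 0.411 in WT TM and 0.224 in TPdh-/- TM. With background coverage as a covariate, an analysis added after seeing the data, the difference depended on how the covariate was fitted. It was -7.48 points with 1 slope for all 16 libraries (permutation p = 0.000816, adjusted p = 0.00245), and 1.32 points when the slope was fitted separately within TM (4.46 points) and within TE (3.14 points), a value with no test. The same difference was -0.98 for the log2 number of members (permutation p = 0.235) and 11 members for the equal-sized lists (permutation p = 0.0576), and with the covariate and 1 slope it was -0.19 (permutation p = 0.873) and 14.6 members (permutation p = 0.0167, adjusted p = 0.0251). With separate slopes it was -0.84 and 6.13 members, the latter from -7.95 in TM and -14.1 in TE, again with no test. The background coverage of WT TM replicate 3, 0.572 against 0.354 to 0.364 in the other libraries of its group, stood apart by Dixon's test, the gap being 0.956 of the range of the group. This was 1 of 20 sets of 4 looked at (background coverage, number of members, share, equal-sized lists and peak strength in each group), and chance alone flags about 1 in 20.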

How the results depend on the processing

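Of 267 alternative values, 193 kept their direction and their side of the threshold, or stayed within 1.5 times the count. For the log2 number of members, TPdh-/- TE against WT TE was 0.748 with a −log10 q of at least 5, 1.79 with a 500 bp window, 0.978 with the covariate and 1.94 without the shortest list of each group, none past the threshold; TPdh-/- TM against WT TM passed it with 50% of the region covered (1.37); WT TM against WT TE was -0.146 with a −log10 q of at least 5 and -1.15 with the covariate. For the share, the covariate gave 4.46, 3.14 and 6.55 points and leaving out the shortest lists gave 0.863, 6.96 and 5.43 points for TPdh-/- TM against WT TM, TPdh-/- TE against WT TE and WT TM against WT TE. That choice was made after seeing the data and leaves 3 libraries against 3, which cannot go below an exact p of 0.1.

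For the share, TPdh-/- TM against WT TM was -2.78 in equal-sized lists and -2.35 with 50% covered, and TPdh-/- TM against TPdh-/- TE ranged from -4.92 (equal-sized lists) to -0.668 (shortest lists left out), none past the threshold.

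In equal-sized lists TPdh-/- TE against WT TE was -14.5 with a 500 bp window, -17.25 with gene 5′ ends only, -13.25 when ranked by fold enrichment, each past the threshold that the reported value missed (exact permutation p = 0.0286), and 2.25 with 50% covered; WT TM against WT TE was -13.25, -17.25 and 1.5 with the window, the 5′ ends (both past the threshold) and the cover. With RefSeq coding starts also excluded, an alternative added after seeing the data, TPdh-/- TM against WT TM was -0.25 and against TPdh-/- TE -1.25. The count of separating members became 1 in TM between genotypes (5′ ends, cover), 1 in TE (equal-sized lists), 0 (−log10 q) or 1 (cover, equal-sized lists) between WT TM and WT TE, and 0 (−log10 q, 500 bp window, equal-sized lists) between TPdh-/- TM and TPdh-/- TE. Peak strength was -0.0383 with a −log10 q of at least 5 and -0.0690 in regions held by at least 2 libraries. The cause of these changes was not tested.

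With the replicate block the TE difference in number was 2.21, that in share 8.11 and the WT difference in share 6.77, each with p = 0.125 by exact sign flips, the smallest the paired design allows. Same-numbered libraries correlated at -0.0351 to 0.0891. Their mean was 0.0351 in WT and 0.0335 in TPdh-/- cells, against -0.0113 and -0.0112 for other numbers. Between genotypes it was 0.0051 in TM and -0.0194 in TE, against -0.0017 and 0.0067. Such low correlations cannot settle whether the numbers pair libraries. Leaving out 1 library at a time gave the following ranges. Number: 1.73 to 2.66 (TE), 0.917 to 1.59 (TM), 0.297 to 0.757 (TPdh-/-). Share: -1.52 to 0.480 (TM), 5.72 to 7.72 (WT) and -2.90 to -1.05 (TPdh-/-). Equal-sized lists: -1 to 3.33 (TM) and -1.33 to 3.33 (TPdh-/-). Separating members: 0 to 3 (TE), 1 to 5 (TM), 2 to 5 (WT) and 2 to 6 (TPdh-/-). Outside WT TE the median member rested on 4 to 6 fragments.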
